A study of Bubalus bubalis with 6 samples.

Results

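The genes described here are the enzymes that make cholesterol and the proteins that control their transcription, measured as polyadenylated RNA in cultured buffalo (Bubalus bubalis) cells that the labels call intramuscular adipocytes, the fat-storing cells between muscle fibres. They were a list of 29 gene names, matched to the gene name that the authors gave each gene model from a protein entry, with every model of a name kept. Of the 29 names, 24 matched 25 models out of 19476 in the table, SC5D having 2 models. PMVK, LSS, NSDHL, EBP and SOAT1 matched no name and are not analysed here. All 25 models reached the minimum for testing, 1 FPKM in at least 3 of the 6 samples, as did 11064 models of the whole table. FPKM divides a model's fragments by its length and by the depth of the sample, so levels of different genes can be compared.

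There were 3 lncFABP4 samples and 3 EGFP samples. The lncFABP4 cells, labelled as overexpressing this long non-coding RNA, had received an adenovirus for it. The EGFP cells, labelled wild type, had received an adenovirus for a green fluorescent protein. Both groups were grown with fetal bovine serum and kept for 48 hours after transduction. They were given an inducing medium for adipogenic differentiation for another 48 hours and collected on day 4. A time of 3 hours is listed for the medium exchange in all 6 samples. The labels name neither the virus dose, nor the promoter that drives the insert, nor the inducers in the medium. They mention triplicate wells but no separate animals or cultures, so the spread behind each p-value may be technical. The question was which transcripts differ when lncFABP4 is overexpressed during adipogenic differentiation.

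Cholesterol is built from acetyl-CoA. The first steps give mevalonate and then the isoprenoid building blocks, which prenyl diphosphate synthases join into farnesyl and geranylgeranyl diphosphate. These feed protein prenylation, dolichol and ubiquinone as well as squalene, which is closed to lanosterol and then trimmed to cholesterol. The enzymes are transcribed under SREBP factors, membrane proteins that SCAP carries from the endoplasmic reticulum to the Golgi when sterols are low, that INSIG proteins hold back when sterols are plentiful, and that the proteases MBTPS1 and MBTPS2 cut free. SREBF2 encodes the factor best known for cholesterol genes and SREBF1 the one best known for fatty acid genes. Fat cells hold a large store of mostly unesterified cholesterol, much of it at lipid droplets.

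FABP4, the gene that shares its name with the transduced RNA, stood at 6505, 10588 and 12003 FPKM in lncFABP4 replicates 1, 2 and 3, and at 154, 149 and 197 FPKM in EGFP replicates 1, 2 and 3, a 58.1-fold difference of means. Column totals ranged from 340165 to 360920 FPKM. The number of reads is unknown, but the commonest ratio of low values put depth between 0.924 and 1.01 of that of EGFP replicate 1. Replicate 1 of lncFABP4 deviated most from its group mean over all tested models (root mean square 0.170 on the log2 scale, against 0.122 to 0.159 in the other 5 samples), so results that rest on it are also given without it. Of 4 tested adipocyte markers, FABP4 and PPARG were higher, LPL lower and CIDEC not called, and the list summed to 6532 to 12032 FPKM in lncFABP4 samples and 166 to 215 FPKM in EGFP samples, most of it FABP4. CEBPA and ADIPOQ, which define mature fat cells, were under 0.2 FPKM in every sample. PLIN4, also of that list, averaged 0.290 FPKM in lncFABP4 cells and 0.306 FPKM in EGFP cells, and PLIN1 and LEP matched no name. Fibroblast or progenitor markers were abundant and lower after lncFABP4 in 5 of 5 matched models, with a summed level of 6863 to 7468 FPKM in lncFABP4 samples and 10981 to 11656 FPKM in EGFP samples. Of all tested models, 16.5% were called higher and 10.2% lower. Of 3 tested smooth muscle markers, ACTA2 and CNN1 were higher and MYH11 was not called (log2 difference -0.016), and the summed level of that list was 164 to 231 FPKM in lncFABP4 samples against 83.9 to 141 FPKM in EGFP samples. Skeletal muscle markers summed to 2.21 to 2.84 FPKM in lncFABP4 samples against 4.33 to 5.05 FPKM in EGFP samples, and endothelial markers to 4.39 to 4.63 FPKM in lncFABP4 samples against 3.11 to 3.52 FPKM in EGFP samples. Leukocyte markers summed to 8.73 to 9.31 FPKM in lncFABP4 samples against 8.62 to 10.7 FPKM in EGFP samples, and epithelial markers to 0.0303 to 0.125 FPKM in lncFABP4 samples against 0.127 to 0.181 FPKM in EGFP samples. Most of the endothelial sum was VWF, with means of 4.12 FPKM in lncFABP4 cells and 3.05 FPKM in EGFP cells. Most of the leukocyte sum was CD68, with means of 8.88 FPKM in lncFABP4 cells and 9.46 FPKM in EGFP cells. In a bulk sample, fewer cells of a type and less RNA per cell cannot be told apart, and the part of these lists in the results below was not tested.

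After lncFABP4 transduction, 3 of the 25 models were higher and 2 lower, and 20 were not called. The calls are from limma on log2(FPKM + 1), lncFABP4 minus EGFP, at an adjusted p under 0.05 over all 11064 models. The models that rose were FDPS and IDI1, which make the isoprenoid chain, and the transcription factor gene SREBF2. Those that fell were both models of SC5D, an enzyme near the end of the pathway. The share called was 20.0%, against 26.7% of all tested models (12% higher against 16.5%, and 8.0% lower against 10.2%), so the share called was not above the background. Values of the groups were fully apart, with no overlap, for 11 of the 25 models, 44.0%, against 43.9% of all tested models. The median difference was 0.14 on the log2 scale, against 0.05 over all tested models, and 18 of 25 differences (72.0%) were above 0, against 56.6% of all tested models. The median of the 25 was 0.088 with TMM-type, 0.048 with quantile and 0.078 with median-of-ratios scaling, and 15 of 25 differences were then above 0, since those of SCAP, HSD17B7 and MSMO1 turned negative. Among all models, 61.8% of the calls were higher in lncFABP4 cells, but 51.2%, 50.8% and 49.2% with TMM-type, quantile and median-of-ratios scaling. TMM-type scaling gave 3 of the 25 models higher and 2 lower, against 13.3% and 12.6% of all tested models. Quantile scaling gave 2 higher and 2 lower, against 13.2% and 12.8%, and median-of-ratios scaling 3 higher and 2 lower, against 12.8% and 13.2%.

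**Figure D1:**
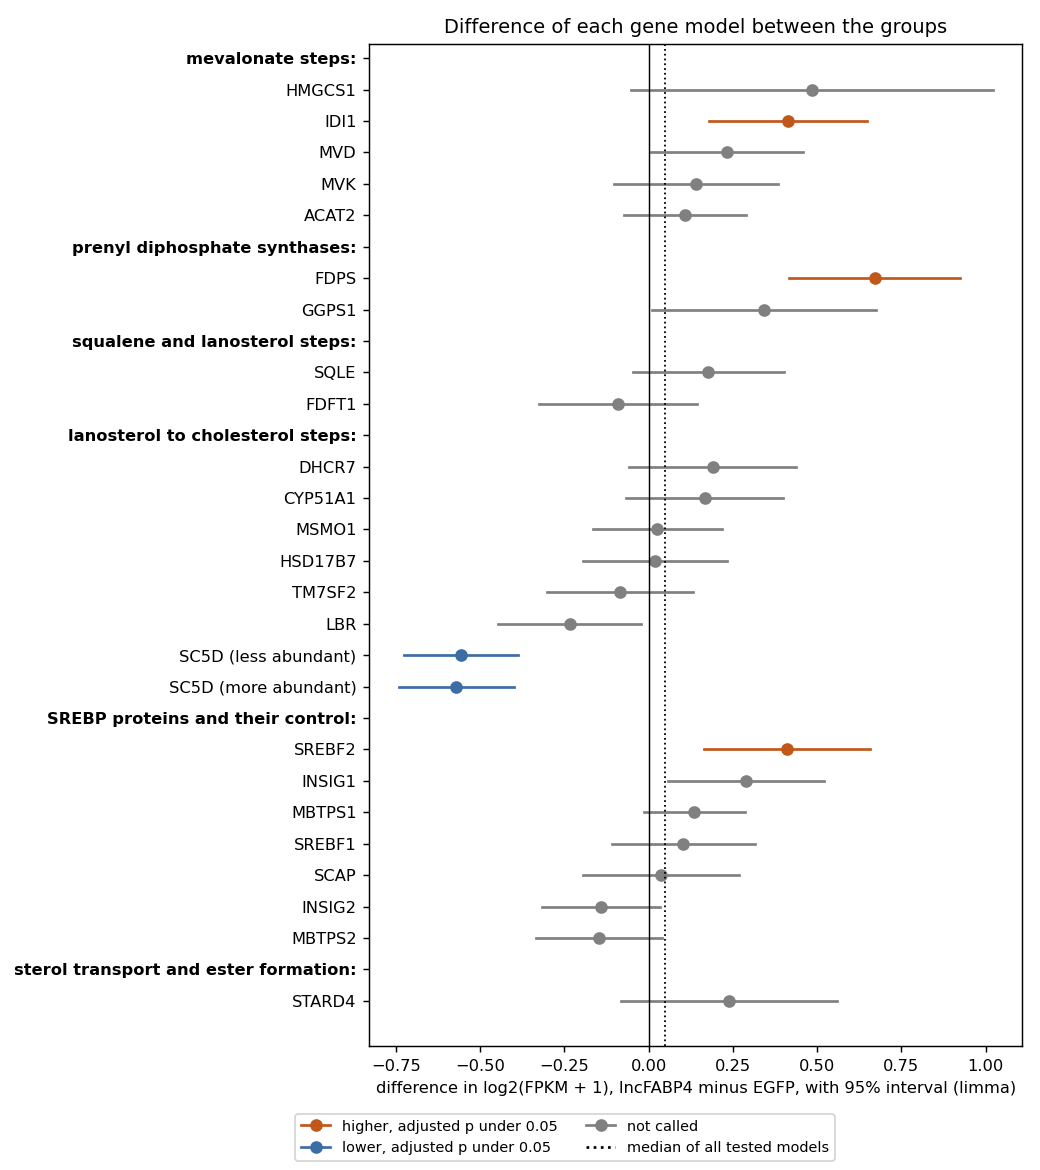
Difference of each of the 25 gene models in log2(FPKM + 1), lncFABP4 minus EGFP, with its 95% interval from limma (horizontal axis), ordered by step of the pathway (vertical axis). Orange and blue mark an adjusted p under 0.05, grey marks models not called, and the dotted line is the median of all tested models, 0.05; the called models lie at 0.67, 0.41 and 0.41 on the higher side and at -0.56 and -0.57 on the lower side.

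The mevalonate steps were represented by 5 models, of which 1 was higher, 0 were lower and 4 were not called, all 5 differences being above 0. Of all tested models, 16.5% were higher and 10.2% lower, and 56.6% of differences were above 0. Their summed level was 42.7, 49.0 and 50.8 FPKM in lncFABP4 replicates 1, 2 and 3, and 37.9, 40.1 and 40.6 FPKM in EGFP replicates 1, 2 and 3. IDI1, the isomerase that balances the isoprenoid building blocks, stood at 7.80, 8.38 and 9.37 FPKM in the lncFABP4 samples, against 5.46, 6.41 and 6.57 FPKM in the EGFP samples. Every lncFABP4 sample was above every EGFP sample, and the mean was 1.39-fold higher (log2 difference 0.41, SE 0.10, limma adjusted p = 0.0196). The call of IDI1 was lost without EGFP replicate 1, lncFABP4 replicate 2 or lncFABP4 replicate 3 (limma adjusted p up to 0.0802). It was also lost when replicate number 2 or 3 was left out of both groups (limma adjusted p up to 0.143).

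HMGCS1, the synthase that makes the precursor of mevalonate, stood at 3.89, 7.61 and 7.77 FPKM in the lncFABP4 samples, against 3.56, 5.33 and 3.68 FPKM in the EGFP samples. Replicate 1 of lncFABP4 lay within the range of the EGFP samples and the other lncFABP4 samples lay above it. With all samples HMGCS1 was not called (log2 difference 0.49, 95% interval -0.052 to 1.02, limma adjusted p = 0.158), and it had the largest relative spread of the 25 models, with an SD of 34.1% of the mean in lncFABP4 cells and 23.6% in EGFP cells. Without lncFABP4 replicate 1 the difference was 0.76 (limma adjusted p = 0.0112).

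The other mevalonate genes were not called. MVD, the decarboxylase that yields the first isoprenoid unit, had 8.36 to 8.96 FPKM in lncFABP4 samples and 6.32 to 7.87 FPKM in EGFP samples, without overlap (log2 difference 0.23, limma adjusted p = 0.113). MVK, mevalonate kinase, was low in both groups, at 2.42 ± 0.105 FPKM in lncFABP4 cells and 2.11 ± 0.339 FPKM in EGFP cells (SD, n = 3 each). The model named ACAT2 carries the protein entry of the cytosolic acetyl-CoA acetyltransferase, the thiolase that starts the pathway, and not that of the sterol acyltransferase that has shared this abbreviation. It averaged 21.4 ± 1.52 FPKM in lncFABP4 cells and 19.8 ± 0.490 FPKM in EGFP cells.

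**Figure D2:**
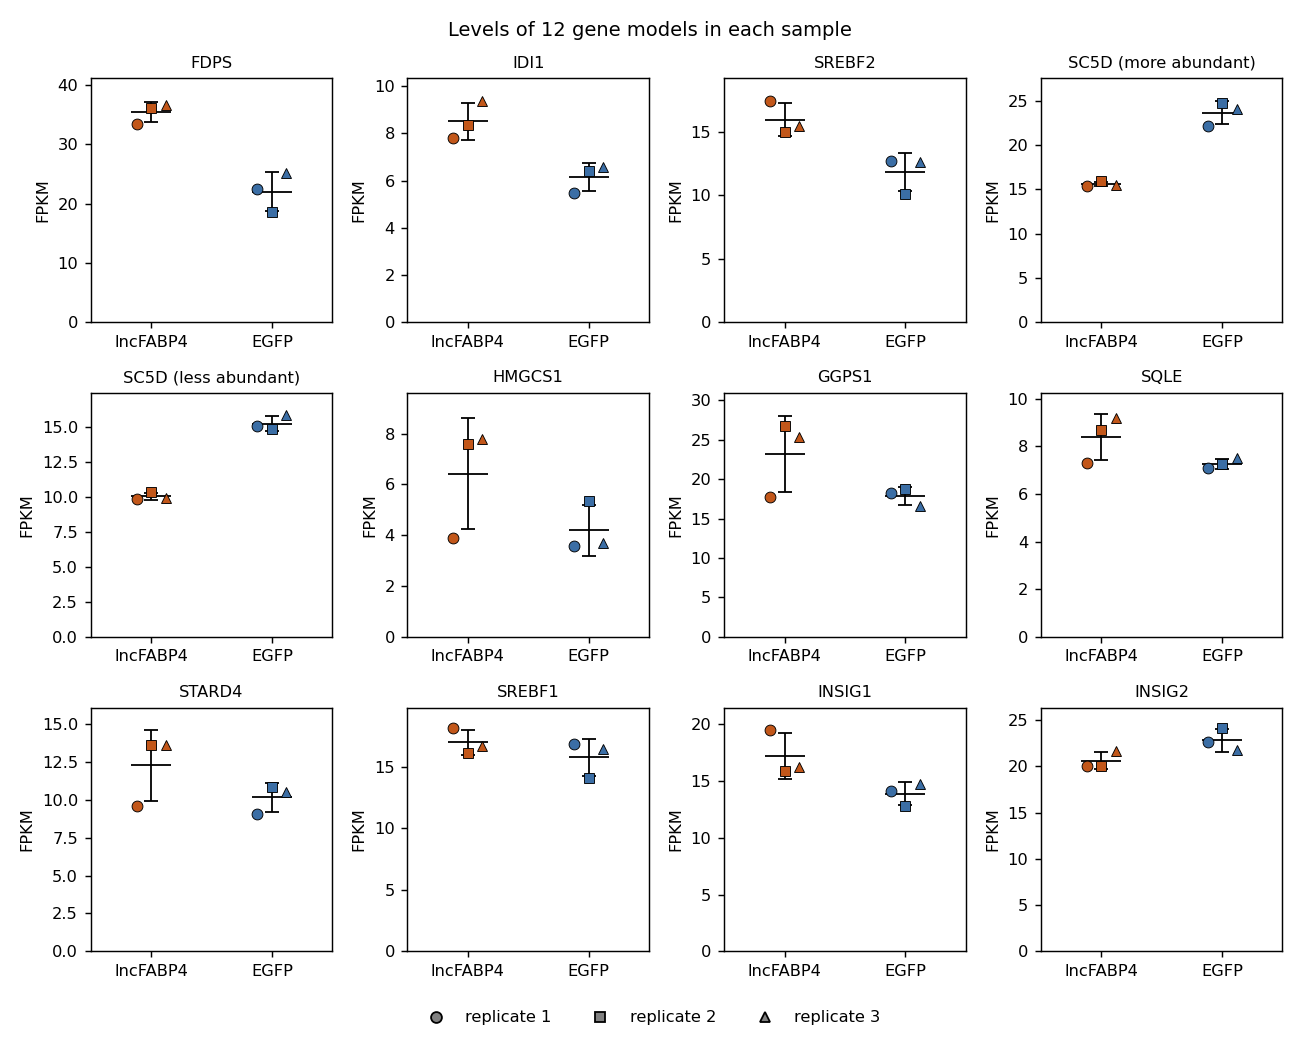
FPKM of 12 of the gene models (vertical axes, from 0) in the 3 lncFABP4 samples and the 3 EGFP samples, with replicates as separate symbols and the mean and SD as bars. FDPS, IDI1 and SREBF2 are higher in every lncFABP4 sample and both SC5D models are lower in every one, while lncFABP4 replicate 1 lies among the EGFP samples for HMGCS1, GGPS1, SQLE and STARD4.

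FDPS, which makes farnesyl diphosphate at the branch point between sterols and prenyl groups, had the largest difference of the 25 models. It stood at 33.5, 36.2 and 36.6 FPKM in the lncFABP4 samples, against 22.4, 18.5 and 25.2 FPKM in the EGFP samples. The groups were apart by more than the spread within either, with a 1.61-fold higher mean in lncFABP4 cells (log2 difference 0.67, SE 0.11, limma adjusted p = 0.00407). FDPS was called under each of the 21 alternative settings tried, with differences from 0.54 to 0.77 (limma adjusted p from 0.000698 to 0.0338). At a mean of 28.7 FPKM over the 6 samples it was also the most abundant of the 17 synthesis enzyme models. This ranking counts the SC5D models, at 19.6 and 12.7 FPKM, separately, and does not hold if they are summed.

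GGPS1, which extends farnesyl to geranylgeranyl diphosphate, stood at 17.7, 26.7 and 25.3 FPKM in the lncFABP4 samples, against 18.2, 18.7 and 16.6 FPKM in the EGFP samples. Replicate 1 of lncFABP4 again lay among the EGFP samples. It was not called with all samples (log2 difference 0.34, 95% interval 0.011 to 0.68, limma adjusted p = 0.114). Without lncFABP4 replicate 1 the difference was 0.52 (limma adjusted p = 0.00487).

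The steps from farnesyl diphosphate to the sterol ring were measured by FDFT1 and SQLE, and neither was called. FDFT1, squalene synthase, which draws farnesyl diphosphate into the sterol branch, averaged 5.46 ± 0.350 FPKM in lncFABP4 cells and 5.90 ± 0.706 FPKM in EGFP cells (log2 difference -0.091, 95% interval -0.33 to 0.14). SQLE, the squalene epoxidase that is a controlled step of the pathway, stood at 7.30, 8.69 and 9.18 FPKM in the lncFABP4 samples, against 7.08, 7.26 and 7.5 FPKM in the EGFP samples. Replicate 1 of lncFABP4 lay within the EGFP range and the other lncFABP4 samples lay above it (log2 difference 0.18, limma adjusted p = 0.214). Without lncFABP4 replicate 1 it was called (0.26, limma adjusted p = 0.0474).

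From lanosterol to cholesterol 8 models were measured, of which 0 were higher, 2 were lower and 6 were not called. Of all tested models, 16.5% were higher and 10.2% lower. Their summed level was 82.1, 89.5 and 85.4 FPKM in lncFABP4 replicates 1, 2 and 3, and 92.4, 93.5 and 101.6 FPKM in the EGFP replicates. This sum was lower in every lncFABP4 sample, but the difference lay in the SC5D models. Without them the other 6 models summed to 56.8, 63.2 and 60.01 FPKM in lncFABP4 replicates 1, 2 and 3, against 55.2, 53.9 and 61.7 FPKM in the EGFP replicates, and the groups overlapped. The sum of all 17 enzyme models overlapped between the groups, at 189 to 216 FPKM in lncFABP4 samples and 183 to 198 FPKM in EGFP samples.

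SC5D, the desaturase that places a ring double bond before DHCR7 acts, accounted for both calls. The more abundant model (evm.model.chr3.1969) stood at 15.4, 15.9 and 15.5 FPKM in the lncFABP4 samples, against 22.2, 24.8 and 24.0 FPKM in the EGFP samples. The lncFABP4 mean was 0.659 of the EGFP mean, well outside the spread of either group (log2 difference -0.57, SE 0.074, limma adjusted p = 0.00173). The less abundant model (evm.model.chr16.245) stood at 9.90, 10.3 and 9.94 FPKM in the lncFABP4 samples, against 15.1, 14.8 and 15.9 FPKM in the EGFP samples. It was lower by the same factor (log2 difference -0.56, SE 0.073, limma adjusted p = 0.00180).

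The models named SC5D cannot be counted as independent evidence. Both carry the same human protein entry, and the first was 1.56, 1.54 and 1.56 times the other in lncFABP4 samples and 1.47, 1.67 and 1.51 times in EGFP samples. If they are near-identical copies, the counting could have split the same reads between them, which was not tested. Summed into 1 gene, SC5D was still lower. Both calls were kept without any single sample (limma adjusted p up to 0.0118). Both were lost when replicate 3 of both groups was left out (limma adjusted p = 0.0525 and 0.0577), a setting in which 567 models of the whole table were called in place of 2958.

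The other 6 models of this stretch were not called. CYP51A1, the lanosterol demethylase, averaged 21.4 ± 1.98 FPKM in lncFABP4 cells and 19.0 ± 2.08 FPKM in EGFP cells. MSMO1 and HSD17B7, which take part in removing methyl groups from the ring, had differences of 0.025 and 0.018 on the log2 scale, both of which turned negative with TMM-type, quantile and median-of-ratios scaling. DHCR7, a reductase at the end of the pathway, averaged 12.2 ± 0.162 FPKM in lncFABP4 cells and 10.7 ± 1.59 FPKM in EGFP cells (log2 difference 0.19, limma adjusted p = 0.224).

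Sterol reductases of the ring were measured by LBR and TM7SF2, which can carry out the same step. LBR, which is also a receptor of the nuclear lamina, had 4.62 to 5.28 FPKM in lncFABP4 samples and 5.78 to 6.61 FPKM in EGFP samples, without overlap (log2 difference -0.23, limma adjusted p = 0.0942). TM7SF2 was the least abundant of the 25 models, at 1.49 ± 0.0969 FPKM in lncFABP4 cells and 1.64 ± 0.131 FPKM in EGFP cells. The fall of SC5D was thus not shared by another model of the stretch at the threshold used.

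Of the 7 models of SREBP proteins and their control, 1 was higher, 0 were lower and 6 were not called, against 16.5% higher and 10.2% lower of all tested models. SREBF2 stood at 17.4, 15.03 and 15.5 FPKM in the lncFABP4 samples, against 12.7, 10.1 and 12.6 FPKM in the EGFP samples. The lowest lncFABP4 sample was above the highest EGFP sample, and the mean was 1.35-fold higher (log2 difference 0.41, SE 0.11, limma adjusted p = 0.0250). Its call was lost without lncFABP4 replicate 1 (0.35, limma adjusted p = 0.0521) or lncFABP4 replicate 3 (limma adjusted p up to 0.0647), with quantile scaling, and without a filter on low values. It was also lost each time 1 replicate number was left out of both groups (limma adjusted p up to 0.121).

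SREBF1 stood at 18.1, 16.1 and 16.7 FPKM in the lncFABP4 samples, against 16.8, 14.1 and 16.4 FPKM in the EGFP samples. The groups overlapped and it was not called (log2 difference 0.10, 95% interval -0.11 to 0.32, limma adjusted p = 0.433). The interval of SREBF1 reaches into that of SREBF2. Such an overlap cannot decide whether the differences of the factors are unlike, which was not tested. Within a sample, the ratio of SREBF2 to SREBF1 was 0.961, 0.933 and 0.926 in lncFABP4 samples and 0.758, 0.719 and 0.767 in EGFP samples. This ratio does not depend on scaling between samples, and it was higher in every lncFABP4 sample. It was 1 of 7 ratios computed, chosen after the values were seen, and is given as a description without a test.

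**Figure D3:**
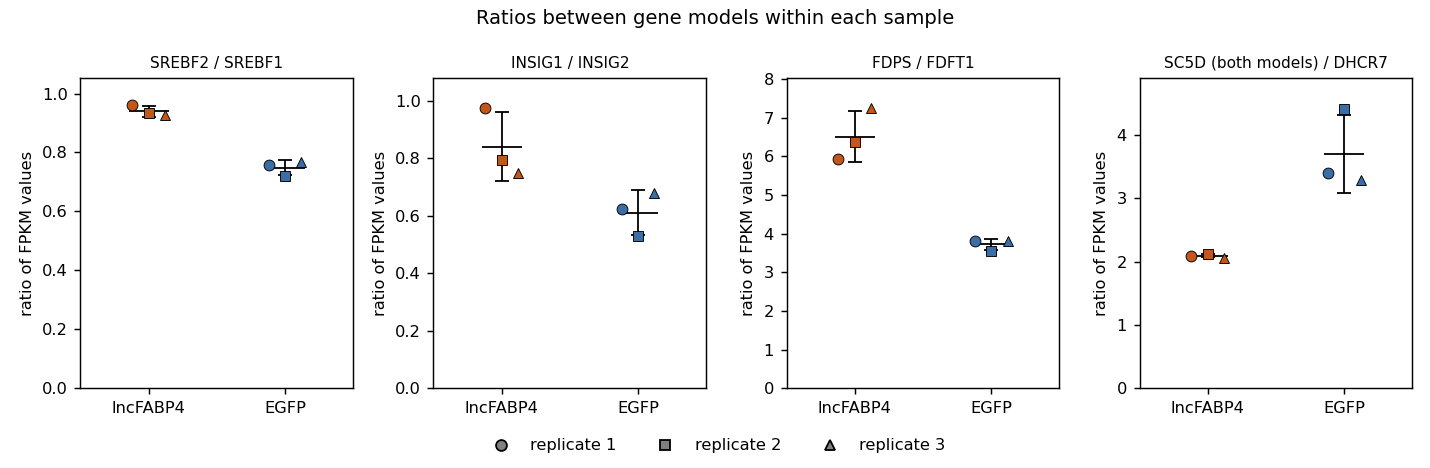
Ratios of FPKM values between gene models of the same sample (vertical axes, from 0) in the 3 lncFABP4 and 3 EGFP samples, with replicates as separate symbols and the mean and SD as bars. SREBF2 to SREBF1, INSIG1 to INSIG2 and FDPS to FDFT1 are higher in every lncFABP4 sample, and SC5D (both models summed) to DHCR7 is lower in every one. The ratios were chosen after the values were seen.

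INSIG1 and INSIG2 both retain the SCAP and SREBP complex, and INSIG1 is itself a well-known SREBP target. INSIG1 stood at 19.5, 15.9 and 16.2 FPKM in the lncFABP4 samples, against 14.1, 12.8 and 14.8 FPKM in the EGFP samples. The groups did not overlap, but INSIG1 was not called (log2 difference 0.29, 95% interval 0.057 to 0.52, limma adjusted p = 0.0674). Without lncFABP4 replicate 1, the highest sample, its difference was 0.20 (limma adjusted p = 0.120). INSIG2 stood at 20.0, 20.1 and 21.65 FPKM in the lncFABP4 samples, against 22.6, 24.2 and 21.73 FPKM in the EGFP samples. The closest samples of the groups nearly touched, and it was not called (log2 difference -0.14, limma adjusted p = 0.199). The ratio of INSIG1 to INSIG2 was 0.975, 0.792 and 0.749 in lncFABP4 samples and 0.624, 0.528 and 0.680 in EGFP samples, so INSIG2 was the more abundant in all 6 samples.

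SCAP, the escort protein, stood at 24.2, 19.9 and 19.6 FPKM in the lncFABP4 samples, against 21.4, 19.0 and 21.4 FPKM in the EGFP samples. The groups overlapped widely, and the 95% interval of its log2 difference ran from -0.20 to 0.27. The protease gene MBTPS1 was the most abundant of the 25 models, with 73.8 to 77.3 FPKM in lncFABP4 samples and 66.9 to 71.9 FPKM in EGFP samples (log2 difference 0.14, limma adjusted p = 0.158). The second protease gene, MBTPS2, had 9.83 to 10.17 FPKM in lncFABP4 samples and 10.22 to 11.6 FPKM in EGFP samples (log2 difference -0.15, limma adjusted p = 0.216). The proteases thus differed in opposite directions, and neither passed the threshold. Their groups did not overlap, which held for 43.9% of all tested models. The differences of MBTPS1 and MBTPS2 were 0.088 and -0.19 with TMM-type and 0.048 and -0.19 with quantile scaling. With median-of-ratios scaling they were 0.078 and -0.20.

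STARD4, a small carrier that moves cholesterol through the cytosol and is a known SREBP target, stood at 9.57, 13.6 and 13.6 FPKM in the lncFABP4 samples, against 9.07, 10.9 and 10.5 FPKM in the EGFP samples. Replicate 1 of lncFABP4 was within the EGFP range. It was not called with all samples (log2 difference 0.24, limma adjusted p = 0.236) and was called without lncFABP4 replicate 1 (0.39, limma adjusted p = 0.0212).

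The position of lncFABP4 replicate 1 within its group varied by gene and is given as a description without a test. It held the highest value of its group for 5 of the 25 models, and these were SREBF1, SREBF2, SCAP, INSIG1 and MBTPS1, all of the SREBP control group. It held the lowest value for 14 models, 12 of them synthesis enzymes and the others INSIG2 and STARD4. It was between the other lncFABP4 samples for MBTPS2, CYP51A1, TM7SF2, MVD, MVK and FDFT1. Over all tested models, it was highest in 42.3% and lowest in 39.6%. Without this sample 6 of the 25 models were called higher, against a background of 18.3% of all tested models, and 2 lower, against 13.1%. The 6 were FDPS, IDI1, HMGCS1, GGPS1, SQLE and STARD4, and SREBF2 was no longer among them. Of the 6 samples left out in turn, only lncFABP4 replicate 1 gave a call of HMGCS1, GGPS1, SQLE or STARD4. With another sample left out, their limma adjusted p was up to 0.387, 0.303, 0.515 and 0.518. FABP4 was also lowest in lncFABP4 replicate 1. Without lncFABP4 replicate 3, in contrast, FDPS was the single model called higher, against a background of 9.29%. Over the 6 samples left out in turn, the number of these genes called higher thus ran from 1 to 6.

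EGFP replicates differed too. EGFP replicate 2 was lowest of its group for 13 of the 25 models, among them 5 of the 7 of the SREBP control group, and highest for 8, among them HMGCS1, GGPS1 and STARD4. EGFP replicate 3 was highest for 15. EGFP replicate 1 was lowest for 10, and ACAT2, HMGCS1, IDI1, SQLE and STARD4 were among the genes lowest both in it and in lncFABP4 replicate 1. Over all tested models, EGFP replicate 2 was lowest in 40.1% and highest in 37.2%. EGFP replicate 3 was highest in 36.1% of them and EGFP replicate 1 lowest in 34.7%.

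**Figure D4:**
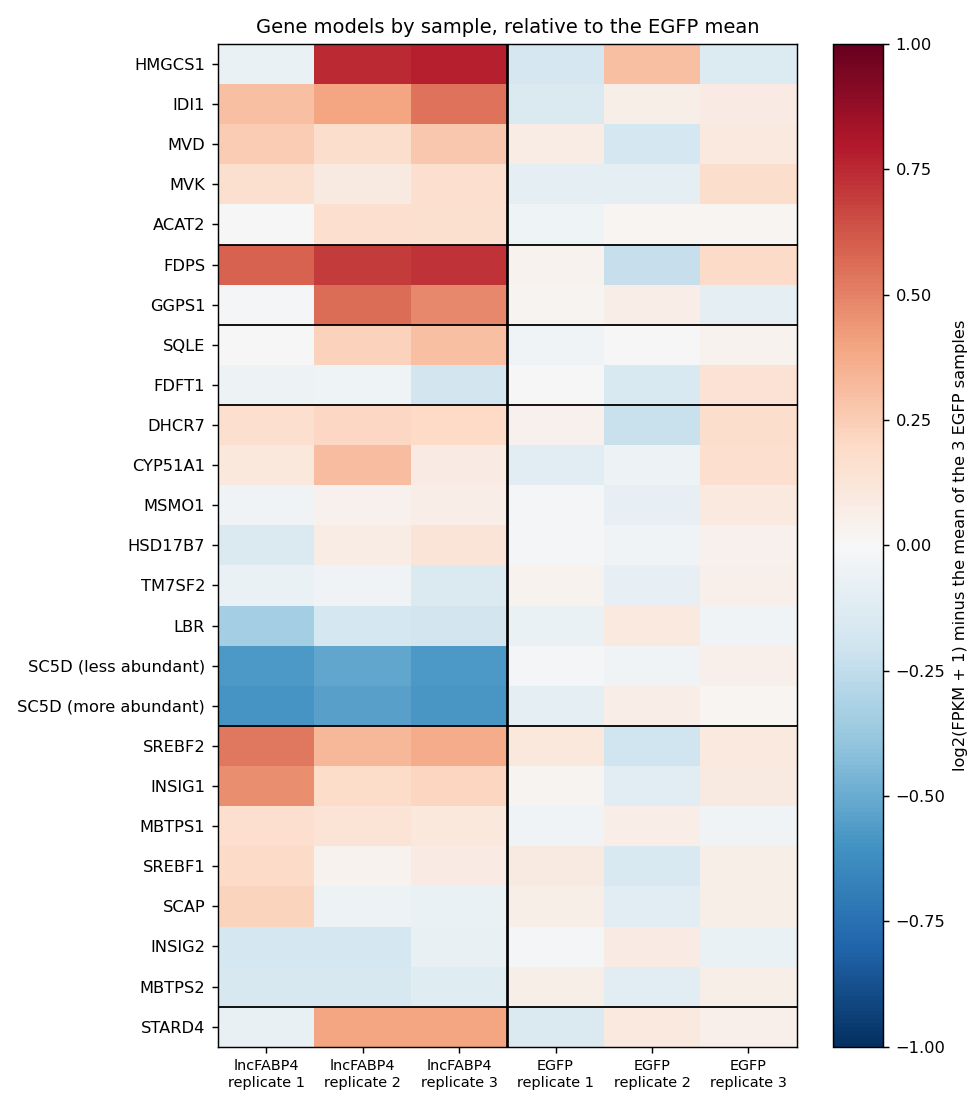
The 25 gene models (rows, separated by step of the pathway) in the 6 samples (columns), coloured by log2(FPKM + 1) minus the mean of the 3 EGFP samples. FDPS, IDI1 and SREBF2 are red and both SC5D models blue in all 3 lncFABP4 samples, while HMGCS1, GGPS1, SQLE and STARD4 are red in lncFABP4 replicates 2 and 3 and near white in replicate 1.

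Ratios along the pathway set the enzymes against each other within a sample. They too were chosen after the values were seen and are given as a description without a test. FDPS, SC5D and SREBF2 were called on their own, so ratios that hold them are not separate evidence. FDPS was 5.93, 6.37 and 7.24 times as abundant as FDFT1, which uses its product for sterols, in lncFABP4 samples, and 3.81, 3.56 and 3.80 times in EGFP samples. FDPS to GGPS1, the enzyme of the competing branch, was 1.89, 1.35 and 1.45 in lncFABP4 samples and 1.23, 0.989 and 1.51 in EGFP samples, which overlapped. SC5D, with both models summed, was 2.10, 2.12 and 2.07 times DHCR7 in lncFABP4 samples and 3.40, 4.42 and 3.29 times in EGFP samples. SREBF2 to SCAP was 0.720, 0.756 and 0.790 in lncFABP4 samples and 0.595, 0.532 and 0.589 in EGFP samples. MBTPS1 to MBTPS2 was 7.85, 7.66 and 7.26 in lncFABP4 samples and 5.77, 7.04 and 5.79 in EGFP samples.

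Genes that use the same isoprenoids moved both ways. Of 13 matched models for prenylation, dolichol and ubiquinone synthesis, 3 were higher, 1 was lower and 9 were not called. That is 23.1% higher and 7.69% lower, against 16.5% and 10.2% of all tested models, and the median log2 difference was 0.21, against 0.05 over all tested models. ZMPSTE24, a protease that processes farnesylated prelamin A, averaged 45.7 ± 0.914 FPKM in lncFABP4 cells and 33.7 ± 3.68 FPKM in EGFP cells (log2 difference 0.43, SE 0.087, limma adjusted p = 0.00911), and kept its call without any single sample. DOLK, dolichol kinase, and FNTB, the beta subunit of protein farnesyltransferase, rose by 0.33 and 0.51, and RCE1, an endoprotease of prenylated proteins, fell (-0.31). Leaving out a single sample ended the call of DOLK for 3 of the 6 samples, of FNTB for 4 and of RCE1 for 5 (limma adjusted p up to 0.0948, 0.120 and 0.151). Without lncFABP4 replicate 2 or 3 none of these 3 was called.

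Among 12 models of fatty acid genes known as targets of the SREBF1 product, 1 rose, 3 fell and 8 did not pass the test. That is 8.33% higher and 25.0% lower, against 16.5% and 10.2% of all tested models, and the median was -0.074, against 0.05. FADS2 and FADS1, fatty acid desaturases, and ACSS2, which activates acetate, fell by 0.77, 0.41 and 0.40 on the log2 scale, and ACACA, which makes malonyl-CoA, rose by 0.38. FADS2 kept its call without any single sample. FADS1 and ACSS2 each lost theirs for 3 of the 6 samples (limma adjusted p up to 0.0830 and 0.0676), lncFABP4 replicate 3 and EGFP replicate 3 among them for both, and ACACA lost its call without lncFABP4 replicate 2 (limma adjusted p = 0.0507).

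In the machinery that senses sterols and degrades pathway proteins at the endoplasmic reticulum, 2 of 13 models were higher, 1 was lower and 10 were not called, with a median of 0.16, against 0.05 over all tested models. The share called was 23.1%, against 26.7% of all tested models, and so not above the background. VCP, the ATPase that pulls ubiquitinated proteins from the membrane, averaged 139 ± 4.41 FPKM in lncFABP4 cells and 94.0 ± 2.19 FPKM in EGFP cells (log2 difference 0.56, SE 0.063, limma adjusted p = 0.000945). Its cofactor NPLOC4 rose by 0.42, and both calls were kept without any single sample. MARCHF6, a ubiquitin ligase known to act on squalene epoxidase, fell by 0.25 on the log2 scale, a call lost for 5 of the 6 samples, lncFABP4 replicate 1 being the exception (limma adjusted p up to 0.111).

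Genes of sterol transport and ester turnover, STARD4 apart, had 1 of 15 tested models higher, 4 lower and 10 not called, with a median of -0.099, against 0.05 over all tested models. That is 6.67% higher and 26.7% lower, against 16.5% and 10.2% of all tested models. The number called lower was 6 with TMM-type, quantile or median-of-ratios scaling, 2 after rescaling without FABP4 or without a filter on low values, and 1 to 3 when samples were left out. NPC2, the cholesterol carrier of the lysosome lumen, averaged 381 ± 81.6 FPKM in lncFABP4 cells and 181 ± 7.69 FPKM in EGFP cells (log2 difference 1.05, SE 0.15, limma adjusted p = 0.00227). GRAMD1A, which moves cholesterol from the plasma membrane to the endoplasmic reticulum, averaged 9.76 ± 1.56 FPKM in lncFABP4 cells and 18.3 ± 1.5 FPKM in EGFP cells (log2 difference -0.85, SE 0.12, limma adjusted p = 0.00205). Both calls were kept without any single sample. The lipid carrier gene OSBPL9 fell in both of its called models (-0.32 and -0.27), and STARD3NL, an endosomal membrane protein, fell by 0.41 on the log2 scale. Leaving out a single sample ended the calls of the OSBPL9 models for 3 and 6 of the 6 samples and that of STARD3NL for 4, lncFABP4 replicates 2 and 3 and EGFP replicate 3 among them each time (limma adjusted p up to 0.0854, 0.155 and 0.124).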

How the data were processed

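Per the submitters' processing notes, HISAT2 and StringTie were used. For versions, build and gene annotation, nothing was given in the sources used here. Coordinates and sequences are therefore left out. The authors deposited 1 value per gene model and sample, read here as FPKM from the values (decimals, column totals that differ), since the header names no unit. The number of reads is unknown, so no counting intervals are given. Gene names were compared in upper case. Of 19476 models, 4570 had no name, and a member without a name would be missed. No other column of per-sample values was present (0).

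A model was tested if 3 or more of the 6 samples held at least 1 FPKM. The two-sided test was limma-trend (limma 3.58.1, R 4.3.3) on log2(FPKM + 1) with group as the single factor and no replicate block. P-values were adjusted over the 11064 models by Benjamini-Hochberg, at a threshold of 0.05. The log2(FPKM + 1) scale understates changes of low genes. Alternatives were pseudocounts of 0.1 and 0.01, no filter or a filter at 5 FPKM, other scalings, the replicate block, samples left out, robust variance (statmod 1.5.0), sample weights and summed models. TMM-type factors were unweighted.

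The genes, lists and tests were chosen with earlier results of these data known. Every matched gene is named. Values per sample are given for called genes and for SREBF1, SREBF2, SCAP, INSIG1, INSIG2, HMGCS1 and SQLE, and those of GGPS1 and STARD4 were added after the values were seen. Up to 4 called genes are named per related list. Names matched were 13 of 15 in the isoprenoid and in the sterol sensing list, 12 of 14 in the fatty acid list and 16 of 18 in the transport list.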

Additional observations from a re-analysis of the deposited data

How the results depend on the processing

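Over 21 alternative settings, the 25 gene models gave 523 repeats. Of these, 496 kept their side of the threshold, 14 lost a call and 13 gained one. Since 20 of the 25 were not called to begin with, most of the 496 were models that stayed uncalled. Of the 14 lost calls, 7 were of SREBF2, 5 of IDI1 and 1 of each SC5D model, over 21 settings each. A call changed direction in 0 repeats. Differences of SCAP, HSD17B7, MSMO1 and FDFT1, not called, changed sign under some settings. Models called over the whole table numbered 2958, and 4982 with sample weights. Leaving out 1 sample gave 1673 to 3468, and leaving out 1 replicate number of both groups gave 567 to 2439 (1406 without number 2). Of the 25 models, 3 were higher, 7 with sample weights (adding HMGCS1, GGPS1, SQLE and STARD4), 1 to 6 without 1 sample and 1 to 5 without 1 replicate number. Of all tested models, 16.5% were higher, and 26.6% with sample weights. That share was 9.29% to 18.3% without 1 sample and 3.03% to 13.1% without 1 replicate number. The 2 lower models became 1 when models of a name were summed, which merges SC5D, 2 without any 1 sample and 0 to 2 without 1 replicate number. The median difference of 0.14 was 0.048, 0.078 and 0.088 with quantile, median-of-ratios and TMM-type scaling, 0.097 to 0.14 without 1 sample and 0.073 to 0.14 without 1 replicate number. The cause of these shifts was not tested, apart from the merging. With the replicate number as a block, 3336 models were called over the table, and 4 of the 25 were higher (INSIG1 added) and 2 lower. Of all tested models, 18.6% were then higher and 11.5% lower. Same-numbered samples did not deviate together throughout (r across 11064 models, which are not independent, of 0.18, 0.29 and -0.077 for numbers 1, 2 and 3). Between samples of different numbers r ran from -0.33 to 0.20. These values cannot settle whether same-numbered samples were paired. INSIG1 was also called after rescaling without FABP4. Among related genes, no filter on low values ended the calls of FNTB, RCE1, FADS1, STARD3NL and the more abundant OSBPL9 model, rescaling without FABP4 those of RCE1, MARCHF6, STARD3NL and the same OSBPL9 model, quantile scaling that of DOLK, the replicate block that of RCE1 (with 6 models of sterol transport lower in place of 4) and median-of-ratios scaling that of FNTB. MVK and TM7SF2 could not be tested with a filter at 5 FPKM. With 3 samples per group and an unknown number of reads, small differences of low models are not resolved.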
